A study of Mus musculus with 12 samples.

Results

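Antiviral-type interferon-stimulated genes encode proteins that detect viral nucleic acid or block steps of virus replication. Here they are 34 genes chosen by name of 55414 genes in the count table. Each of the 34 symbols matched 1 Ensembl mouse identifier, with Ddx58 (also named Rigi) under its older symbol, and all 34 passed the low-count filter in both organs. The RNA came from livers and lungs of C57BL/6J mice, wild type, that were operated on 6 h earlier. The surgery was either a sham operation, the control, or CLP. In this field CLP stands for cecal ligation and puncture, which lets gut bacteria into the abdomen and serves as a model of sepsis. The 4 groups were sham liver, CLP liver, sham lung and CLP lung, with 3 libraries each, and all 12 libraries share strain and genotype. The labels give no age or sex and leave unsaid whether every library is a different mouse, so p-values measure the spread between these libraries only. Liver and lung libraries with the same replicate number are not stated to share a mouse.

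Interferons are secreted proteins that bind receptors on most cells. Type I and type III interferons act through the kinases JAK1 and TYK2 and a transcription factor complex that includes STAT2 and IRF9 and binds a promoter element called the interferon-stimulated response element (ISRE). Interferon gamma acts mainly through another element, the gamma-activated site (GAS). Bacterial products sensed through Toll-like receptors can induce the same genes, with or without virus.

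Promoter sequences in the RefSeq-derived table of mouse build GRCm38.p6 were matched for 24 of the 34 members. Each entry covers 250 bases before the gene's start to 50 bases after it. The ISRE core was searched on both strands as GAAA, any 2 bases and GAAA, and 11 of 24 members (45.8%) held it, against 3.99% of the 27025 genes in the table. Before the start alone the shares were 33.3% of members (8 of 24) and 3.46% of all genes. The GAS core, TTC, any 3 bases and GAA, also on both strands, was in 5 of 24 members (20.8%) and in 9.55% of all genes. A match describes letters in this window and is not a measured site.

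The last 200 bases before the start are printed 5′ to 3′ for members that the results below turn on, with ISRE cores in capitals; overlapping cores run together, and a core on the other strand reads TTTC, any 2 bases and TTTC. The intervals are chr4:156200819-156201018 (minus strand) for Isg15, chr19:34640689-34640888 (plus strand) for Ifit1, chr19:34583329-34583528 (plus strand) for Ifit3 and chr12:26456453-26456652 (minus strand) for Rsad2. For Oas3 the interval is chr5:120777660-120777859 (minus strand), for Bst2 chr8:71537473-71537672 (minus strand) and for Cmpk2 chr12:26469015-26469214 (plus strand). Ifit2 has more than 1 listed start, and the interval shown is chr19:34550494-34550693 (plus strand).
Isg15: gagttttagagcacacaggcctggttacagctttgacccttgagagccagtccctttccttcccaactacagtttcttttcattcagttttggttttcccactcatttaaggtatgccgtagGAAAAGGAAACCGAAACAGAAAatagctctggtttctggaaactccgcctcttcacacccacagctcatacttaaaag
Ifit1: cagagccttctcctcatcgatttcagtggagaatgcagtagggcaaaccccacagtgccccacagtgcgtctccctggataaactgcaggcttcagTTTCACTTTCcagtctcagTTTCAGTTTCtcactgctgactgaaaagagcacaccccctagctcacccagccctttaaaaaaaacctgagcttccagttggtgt
Ifit3: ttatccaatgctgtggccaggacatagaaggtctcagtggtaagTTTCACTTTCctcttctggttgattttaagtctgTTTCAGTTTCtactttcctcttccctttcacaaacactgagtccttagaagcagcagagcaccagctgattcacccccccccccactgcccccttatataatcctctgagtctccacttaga
Rsad2: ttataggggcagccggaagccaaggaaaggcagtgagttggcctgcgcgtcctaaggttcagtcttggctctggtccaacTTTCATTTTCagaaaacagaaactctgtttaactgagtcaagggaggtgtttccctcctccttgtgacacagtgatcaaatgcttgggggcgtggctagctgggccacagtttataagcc
Oas3: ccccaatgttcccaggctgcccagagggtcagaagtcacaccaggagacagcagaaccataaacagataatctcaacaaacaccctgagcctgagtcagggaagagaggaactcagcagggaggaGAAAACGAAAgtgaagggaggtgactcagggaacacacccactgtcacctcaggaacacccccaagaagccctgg
Bst2: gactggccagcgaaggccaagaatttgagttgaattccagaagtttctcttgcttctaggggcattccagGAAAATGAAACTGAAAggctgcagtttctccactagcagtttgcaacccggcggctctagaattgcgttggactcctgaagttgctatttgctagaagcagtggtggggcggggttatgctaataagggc
Cmpk2: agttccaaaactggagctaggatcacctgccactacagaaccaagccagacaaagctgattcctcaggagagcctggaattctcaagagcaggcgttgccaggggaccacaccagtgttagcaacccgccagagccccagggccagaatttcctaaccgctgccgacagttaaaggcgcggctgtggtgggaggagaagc
Ifit2: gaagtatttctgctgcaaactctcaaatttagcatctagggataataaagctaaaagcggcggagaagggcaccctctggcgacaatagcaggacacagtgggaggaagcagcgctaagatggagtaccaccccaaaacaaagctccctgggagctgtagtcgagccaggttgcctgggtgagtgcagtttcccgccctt

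Isg15 carries 3 overlapping cores, Bst2 carries 2 that overlap, Ifit1 and Ifit3 carry 2 separate cores, and Rsad2 and Oas3 carry 1. Neither the Ifit2 nor the Cmpk2 sequence holds the core. In liver the larger changes among these members were those of Isg15, Ifit1 and Ifit3, of Rsad2, and of Ifit2 and Cmpk2, with no core in the window shown. The smaller ones were those of Oas3 and Bst2. In lung the order was another. The log2 fold changes there were 4.39 for Rsad2, 3.30 for Oas3, 2.88 for Ifit1 and 2.87 for Isg15. They were 2.18 for Ifit3, 1.96 for Cmpk2, 0.67 for Ifit2 and 0.64 for Bst2. Whether the number of cores bears on the response was not tested. For Ifit3 and Bst2 the first bases after the listed start were not found in annotated transcripts of the gene, so these windows may not lie at the start in use.

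Library totals lay between 10559895 and 15854117 counts. CPM here are counts relative to a library size of 1e6, after TMM scaling (the trimmed mean of M values) over all 12 libraries, and 3 counts were worth 0.140 to 0.494 CPM. The library labels matched organ markers: 7 hepatocyte genes summed to at least 128084 CPM in every liver library and to at most 88.1 CPM in lung. Alveolar type 2 cell markers summed to at least 11414 CPM in lung, to 4.89 to 7.92 CPM in sham liver and to 27.7 to 40.8 CPM in CLP liver. Neutrophil markers rose in both organs, in 7 of 7 tested genes in liver and 8 of 8 in lung. Their summed level went from between 27.3 and 31.0 to between 242 and 341 CPM in liver, and from between 606 and 694 to between 3800 and 5440 CPM in lung. Monocyte markers rose in 4 of 7 tested genes in liver, where 1 fell, and in 7 of 7 in lung, and Kupffer cell markers fell in 4 of 5 in liver. In lung, NK cell markers rose in 3 of 5 genes, with sums of 4.88 to 9.77 CPM after sham and 24.0 to 26.2 CPM after CLP, and T cell markers rose in 4 of 6. Endothelial markers fell in 3 of 5 genes in lung, where they summed to 1968 to 2199 CPM after sham and 1588 to 1806 CPM after CLP, and alveolar macrophage markers fell in 3 of 7. In liver the endothelial list had 1 gene higher and 2 lower of 5, and alveolar macrophage markers 2 higher and 1 lower of 4 tested. Shares called over all genes tested were 21.4% higher and 21.0% lower in liver, and 23.9% and 24.9% in lung. In bulk tissue, more cells of a type and more RNA per cell cannot be told apart, and the part of these cell types in the results below was not tested.

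After CLP, 31 of 34 members were higher in liver and 32 of 34 in lung at a Benjamini-Hochberg adjusted p below 0.05 in edgeR's quasi-likelihood test. Over all genes tested, 21.4% were called higher in liver and 23.9% in lung. No member was lower: all 34 log2 fold changes were above 0 in both organs, so 0 were lower at an unadjusted p under 0.05 too, and DESeq2 and limma-voom also called 0 lower, against 21.0% and 24.9% of all genes called lower by edgeR. The median log2 fold change of the members was 2.22 in liver (quartiles 1.60 and 3.40) and 1.88 in lung (1.28 and 2.53), beside -0.01 and -0.03 over all genes tested. At least a 4-fold rise was measured for 20 members in liver and 14 in lung, and at least an 8-fold rise for 12 and 5. Every CLP library lay above every sham library for 32 members in each organ, which held for 28.2% of all genes tested in liver and 27.0% in lung. In both organs 30 members passed the test, and Trim25 passed in neither. Ifit2 passed in liver alone, and Dtx3l and Ifi27l2a in lung alone.

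**Figure D1:**
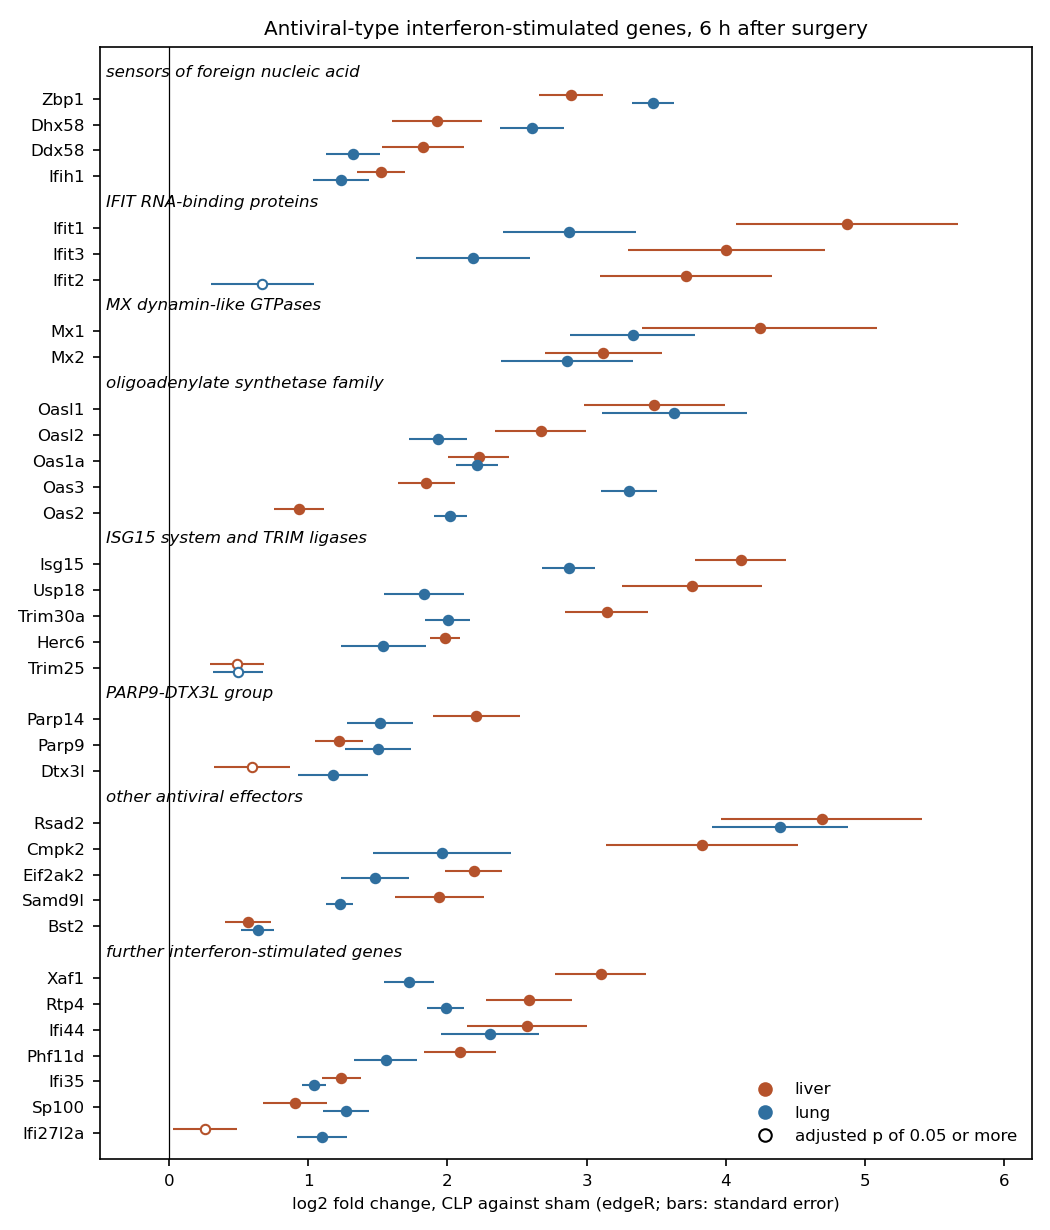
Log2 fold change of each member, CLP against sham, in liver (brown) and lung (blue), with members grouped by role; bars are standard errors from edgeR with 3 libraries a group and open circles have an adjusted p of 0.05 or more. Every value lies above 0, from 0.26 for Ifi27l2a to 4.87 for Ifit1 in liver and from 0.49 for Trim25 to 4.39 for Rsad2 in lung.

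All 4 sensors of foreign nucleic acid were higher in both organs. Zbp1, which binds nucleic acid in the Z conformation and can start cell death, had the largest rise of the 4. In liver its libraries, in replicate order, read 20.8, 19.4 and 22.8 CPM after sham and 193, 106 and 169.8 CPM after CLP, and in lung 4.43, 3.70 and 5.57 CPM after sham and 55.7, 47.9 and 46.7 CPM after CLP. The groups were far apart in both organs, and the log2 fold changes were 2.89 ± 0.23 in liver (adjusted p = 0.000116) and 3.48 ± 0.15 in lung (adjusted p = 1.04e-05). Ddx58 encodes RIG-I, a receptor for short viral RNA, and rose by 1.82 ± 0.30 and 1.32 ± 0.19 on the log2 scale in liver and lung. Ifih1, whose product MDA5 binds long double-stranded RNA, went from 65.0 ± 7.68 to 187 ± 39.1 CPM in liver (SD, n = 3) and from 34.9 ± 2.21 to 80.7 ± 23.7 CPM in lung, the smallest rise of the 4 in both organs (1.52 and 1.23). Dhx58, or LGP2, a relative of these receptors that lacks their signalling domain, rose by 1.92 ± 0.32 in liver and 2.61 ± 0.23 in lung. Zbp1 and Dhx58 had the larger log2 value in lung and Ddx58 and Ifih1 in liver, but none of these 4 differences between organs passed the test.

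IFIT proteins bind viral RNA that lacks the host's cap modifications. Ifit1 had the largest change of any member in liver, where its libraries read 13.9, 10.4 and 33.0 CPM after sham and 639.9, 160.1 and 889 CPM after CLP. The lowest CLP library was still far above the highest sham library, but CLP replicate 2 was well below the other 2 CLP libraries, and the log2 fold change was 4.87 ± 0.80 (adjusted p = 0.00412). In lung Ifit1 read 16.2, 11.5 and 17.1 CPM after sham and 95.1, 51.1 and 177 CPM after CLP, a change of 2.88 ± 0.48 (adjusted p = 0.00382). Ifit3 read 12.7, 6.80 and 17.9 CPM after sham and 186, 64.9 and 356 CPM after CLP in liver, and 25.1, 15.5 and 28.6 CPM after sham and 87.2, 61.0 and 159.9 CPM after CLP in lung, with log2 fold changes of 4.003 ± 0.71 and 2.18 ± 0.41. Its near-identical neighbour Ifit3b, which matches 97.4% of the Ifit3 transcript and can share its reads, changed by 3.70 ± 0.69 and 2.10 ± 0.31, so the split between them is uncertain.

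Ifit2 was the member whose response differed most between organs. In liver it read 6.40, 4.41 and 10.2 CPM after sham and 82.6, 37.9 and 161 CPM after CLP, with no overlap. In lung it read 27.1, 22.7 and 29.1 CPM after sham and 31.8, 24.4 and 67.4 CPM after CLP, and the lowest CLP library fell within the sham range. The log2 fold change was 3.71 ± 0.62 in liver (adjusted p = 0.00429) and 0.67 ± 0.37 in lung (adjusted p = 0.182). After sham surgery, lung was above liver by 1.88 ± 0.58 on the log2 scale. The difference, lung minus liver, was -3.07 ± 0.77 in the 12-library fit (adjusted p = 0.0210). That call ended without sham liver replicate 1 (adjusted p = 0.0551) or 2 (0.0602), without CLP lung replicate 1 (0.0535) and without a low-count filter (0.0686), with values from -3.61 to -2.38 over 18 alternatives. Without CLP lung replicate 2 the lung change was 0.97 and passed the test (adjusted p = 0.0489).

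MX proteins are dynamin-like GTPases that trap viral nucleoprotein. In C57BL/6 mice the Mx1 gene carries a deletion and gives no functional protein. Both Mx1 and Mx2 are read here as transcripts only, and whether Mx2 gives a functional protein was not tested. Mx1 was low after sham, at 2.57 ± 1.51 CPM in liver and 1.95 ± 0.235 CPM in lung (SD, n = 3). After CLP its libraries read 35.4, 16.1, 100.4 CPM in liver and 19.9, 8.99, 29.3 CPM in lung, in replicate order. The CLP libraries of liver were 6.22-fold apart, the widest spread of any member, and the log2 fold change there was 4.24 ± 0.84 (adjusted p = 0.00864); it was 3.33 ± 0.45 in lung. Mx2 read 17.0, 17.3 and 18.3 CPM after sham and 165, 70.9 and 222 CPM after CLP in liver, and 2.65, 2.11 and 3.37 CPM after sham and 18.3, 8.94 and 30.9 CPM after CLP in lung, changes of 3.12 ± 0.42 and 2.86 ± 0.48. A stretch of 34.01% of the Mx2 transcript matches Mx1 at 95% identity or more, so some reads of the pair may be shared or lost.

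Oligoadenylate synthetases are switched on by double-stranded RNA and make short oligoadenylates that activate ribonuclease L, which degrades RNA. All 5 members of this family rose in both organs, and it held the only members with a significantly larger rise in lung, Oas2 and Oas3. Oas3 read 3.26, 2.98 and 4.62 CPM after sham and 12.5, 13.5 and 13.7 CPM after CLP in liver, and 7.63, 4.50 and 8.05 CPM after sham and 70.0, 59.4 and 66.6 CPM after CLP in lung. Its CLP libraries lay close together in both organs, within 1.09-fold in liver and 1.18-fold in lung, and the log2 fold change was 1.85 ± 0.20 in liver (adjusted p = 0.000279) and 3.30 ± 0.20 in lung (adjusted p = 4.89e-05). The change in lung exceeded that in liver by 1.43 ± 0.30 (adjusted p = 0.00510). Oas2, its neighbour on chromosome 5, read 12.2, 9.90 and 11.1 CPM after sham and 22.9, 16.7 and 24.2 CPM after CLP in liver, and 17.1, 14.2 and 17.5 CPM after sham and 73.7, 60.0 and 60.9 CPM after CLP in lung. The rise in liver was one of the smallest that passed the test, 0.93 ± 0.18, against 2.02 ± 0.12 in lung, a difference of 1.06 ± 0.21 (adjusted p = 0.00409). Both differences passed the test in all 18 alternatives run, from 0.96 to 1.22 for Oas2 and from 1.21 to 1.62 for Oas3.

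Oas1a had nearly the same change in both organs, 2.23 ± 0.22 in liver and 2.21 ± 0.15 in lung, with a difference of -0.04 ± 0.27. The whole Oas1a transcript has a near match in Oas1g, so their reads may be mixed; Oas1g changed by 2.12 ± 0.33 and 2.56 ± 0.27. Oasl1, which in mouse represses translation of the interferon regulator IRF7, read 17.9, 13.5 and 26.3 CPM after sham and 248, 93.0 and 310.3 CPM after CLP in liver, and 2.80, 1.74 and 2.01 CPM after sham and 24.2, 12.1 and 43.3 CPM after CLP in lung, with similar changes of 3.49 ± 0.51 and 3.63 ± 0.52. Oasl2, the neighbour of Oasl1, had the opposite order of levels between organs: sham lung was higher than sham liver for Oasl2 (2.08 ± 0.30 on the log2 scale) and lower for Oasl1 (-3.15 ± 0.63). Oasl2 rose by 2.67 ± 0.33 in liver and 1.93 ± 0.21 in lung.

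Isg15 encodes a ubiquitin-like protein that is attached to other proteins, and its transcript reached the highest level per length of all members after CLP. It read 14.2, 12.2 and 18.9 CPM after sham and 304, 159 and 321 CPM after CLP in liver, and 6.31, 5.49 and 7.63 CPM after sham and 45.7, 37.1 and 57.2 CPM after CLP in lung, with a wide gap between groups in both. The log2 fold changes were 4.11 ± 0.32 (adjusted p = 0.000156) and 2.87 ± 0.19 (adjusted p = 6.19e-05). A pseudogene matches 63.8% of the Isg15 transcript, so some reads could have been counted there. Usp18, which removes ISG15 from proteins and damps the type I interferon receptor, read 19.7, 16.1 and 24.9 CPM after sham and 273, 118 and 432 CPM after CLP in liver, and 11.7, 14.3 and 15.1 CPM after sham and 46.6, 30.0 and 67.2 CPM after CLP in lung, changes of 3.76 ± 0.50 and 1.83 ± 0.28. Herc6, the main ISG15 ligase of mouse, rose by 1.98 ± 0.11 and 1.54 ± 0.30, and its lung call ended without a low-count filter (adjusted p = 0.0566).

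Of the TRIM ubiquitin ligases, Trim30a rose from 15.7 ± 3.13 to 139 ± 47.9 CPM in liver (SD, n = 3) and from 37.2 ± 4.90 to 146 ± 28.2 CPM in lung, changes of 3.14 ± 0.30 and 2.002 ± 0.16. Trim25, which promotes RIG-I signalling, passed the test in neither organ. It read 219, 217 and 253 CPM after sham and 340.5, 232 and 397 CPM after CLP in liver, and 112, 118 and 111 CPM after sham and 155, 116 and 201 CPM after CLP in lung. In both organs CLP replicate 2 lay within the sham range while CLP replicates 1 and 3 lay above it, and the values were 0.49 ± 0.19 (adjusted p = 0.0722) and 0.49 ± 0.18 (adjusted p = 0.0553). Without CLP replicate 2 they were 0.69 (adjusted p = 0.00378) in liver and 0.71 (0.00229) in lung. With all libraries kept, DESeq2 called Trim25 higher in liver (adjusted p = 0.0475) and lung (0.0145). So did edgeR without a low-count filter in liver (0.00861). Of the list of ISG15 conjugation partners, Uba7, the activating enzyme, rose by 1.72 ± 0.37 and 0.77 ± 0.16 and Ube2l6, the conjugating enzyme, by 1.10 ± 0.13 and 0.79 ± 0.12. The Uba7 call ended in liver without a low-count filter (adjusted p = 0.0607) and in lung in the 12-library fit (0.0514). In each organ 5 of 6 genes of that list, 4 of which are members, were higher, beside 21.4% of all genes tested in liver and 23.9% in lung. Over the alternatives the count was 5 to 6 in liver and 4 to 6 in lung.

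Parp9 and Dtx3l encode partners in a complex that joins ubiquitin ligase and ADP-ribosyl transfer activity, and Parp14 is a related ADP-ribosyltransferase next to them on chromosome 16. Parp14 rose by 2.21 ± 0.31 in liver and 1.52 ± 0.24 in lung, and Parp9 by 1.22 ± 0.17 and 1.499 ± 0.24. Dtx3l read 106, 107 and 138 CPM after sham and 199.9, 106 and 224 CPM after CLP in liver, and 36.7, 28.7 and 36.2 CPM after sham and 80.4, 47.9 and 97.5 CPM after CLP in lung. In liver CLP replicate 2 was no higher than the lowest sham library and the change was 0.59 ± 0.27 (adjusted p = 0.121); without that library it was 0.87 (adjusted p = 0.00182). In lung the groups did not overlap and the change was 1.18 ± 0.25 (adjusted p = 0.00730), a call that ended without a low-count filter (0.0699). The exons of Dtx3l and Parp9 overlap by 458 bases on opposite strands in the GENCODE M21 annotation, so reads there can be assigned only if strand was used.

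Rsad2 encodes viperin, which makes a nucleotide that ends RNA chains, and had the largest change of any member in lung. It read 13.5, 11.9 and 30.4 CPM after sham and 542, 154 and 758 CPM after CLP in liver, and 6.61, 3.75 and 6.37 CPM after sham and 93.2, 64.6 and 187 CPM after CLP in lung. Every CLP library was well above every sham library in both organs, with log2 fold changes of 4.69 ± 0.72 (adjusted p = 0.00324) and 4.39 ± 0.49 (adjusted p = 0.000758). Cmpk2, a mitochondrial nucleotide kinase whose gene lies beside Rsad2 in the opposite orientation on chromosome 12, read 6.17, 4.77 and 10.8 CPM after sham and 117, 31.0 and 166 CPM after CLP in liver, and 14.8, 13.1 and 17.7 CPM after sham and 45.1, 27.3 and 102 CPM after CLP in lung. Its changes were 3.83 ± 0.69 and 1.96 ± 0.49. The lung value was 1.31 without CLP replicate 3, and the lung call ended without sham replicate 2 (adjusted p = 0.0655) or without a low-count filter (0.0940).

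Eif2ak2 encodes PKR, a kinase that stops translation on binding double-stranded RNA, and rose by 2.19 ± 0.21 in liver and 1.48 ± 0.24 in lung. Samd9l, which also restrains translation in infected cells, rose by 1.94 ± 0.32 and 1.22 ± 0.10. Bst2 encodes tetherin, which holds budding virus at the cell surface. It was the member with the highest level per length in both organs after sham, and it read 144, 116 and 139 CPM after sham and 239, 157 and 198 CPM after CLP in liver, and 37.4, 30.1 and 36.4 CPM after sham and 52.2, 47.2 and 59.3 CPM after CLP in lung. The groups did not overlap, but the rises were small, 0.57 ± 0.16 in liver (adjusted p = 0.0235) and 0.64 ± 0.12 in lung (adjusted p = 0.00272). The liver call ended with library totals alone (0.37, adjusted p = 0.124) and without CLP replicate 1 (0.0661) or 3 (0.0544) or sham replicate 2 (0.0778) or 3 (0.0548), while the lung call held in all 13 alternatives.

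**Figure D2:**
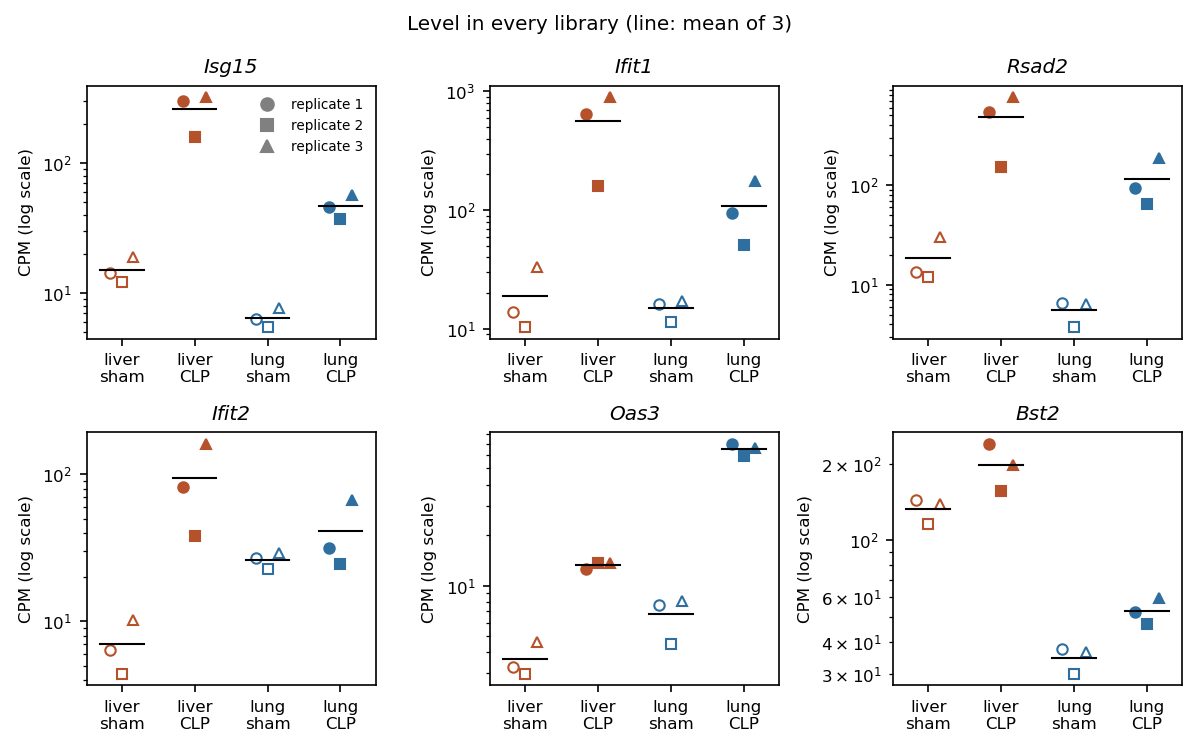
CPM of 6 members in each of the 12 libraries on a log axis, with sham as open symbols, CLP as filled symbols, liver in brown, lung in blue, the replicate number as the symbol's shape and a line at the mean of 3 libraries. Isg15, Ifit1 and Rsad2 are well separated in both organs, Ifit2 overlaps in lung, Oas3 has its larger step in lung and Bst2 moves little from a high level.

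Of the remaining 7 members, 6 were higher in liver and 7 in lung. Xaf1, a partner of the apoptosis inhibitor XIAP, rose by 3.10 ± 0.32 and 1.72 ± 0.18 in liver and lung, and Rtp4, a receptor-trafficking protein, by 2.58 ± 0.31 and 1.99 ± 0.13. Ifi44 rose by 2.57 ± 0.43 and 2.31 ± 0.35, and Phf11d by 2.09 ± 0.26 and 1.56 ± 0.22. Smaller changes were measured for Ifi35 (1.24 ± 0.14 and 1.04 ± 0.09) and for Sp100, a component of nuclear bodies (0.90 ± 0.23 and 1.27 ± 0.17). Parts of the Phf11d and Sp100 transcripts have near copies in neighbouring genes, so those values are uncertain. Exons of Dhx58, Eif2ak2, Ifi35, Oasl1 and Usp18 overlap genes not annotated as protein-coding on the other strand in GENCODE M21, and those of Herc6, Rtp4 and Parp14 overlap such genes on their own strand, so reads there may be shared.

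Ifi27l2a had the smallest change of all in liver. There it read 5.01, 3.34 and 4.82 CPM after sham and 5.07, 5.34 and 5.43 CPM after CLP, so that the lowest CLP library was barely above the highest sham library, and the change was 0.26 ± 0.23 (adjusted p = 0.397), which passed the test in none of 13 alternatives. In lung it read 9.61, 9.75 and 10.5 CPM after sham and 23.7, 24.4 and 14.8 CPM after CLP. All CLP libraries were above all sham libraries, CLP replicate 3 was here the lowest, and the change was 1.10 ± 0.18 (adjusted p = 0.00188). The difference between organs, 0.82 ± 0.30, did not pass the test (adjusted p = 0.0755). It passed in 3 of 18 alternatives: with library totals alone (0.0489), without sham liver replicate 2 (0.0350) and without CLP lung replicate 3 (0.00695).

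Levels of different members were compared per kilobase of exon. After sham the highest in liver were Bst2 (147 CPM per kb) and Trim25 (39.9), both of which changed little, and the lowest were Oas3 (0.512) and Mx1 (0.678). After CLP the order in liver began with Isg15 (346 CPM per kb), Bst2 (219), Ifit1 (212), Ifit3 (116) and Rsad2 (112). In lung after CLP the leading members, Isg15 (61.7), Ifit3 (58.9) and Bst2 (58.6), lay close to each other. Oas3 remained the lowest in liver (1.87) and was at 9.24 in lung, where Herc6 was lowest (4.63).

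After sham surgery, the members had no common order between organs. Sham lung was higher than sham liver for 10 members and lower for 12, where 44.4% of all genes tested were higher and 36.5% lower. The largest differences were Oasl1 (-3.15 ± 0.63), Mx2 (-2.69 ± 0.55) and Zbp1 (-2.20 ± 0.22) on the side of liver, and Oasl2 (2.08 ± 0.30), Ifit2 (1.88 ± 0.58), Phf11d (1.82 ± 0.28) and Sp100 (1.77 ± 0.22) on the side of lung. These counts depend on how organs of different composition are scaled: with library totals alone the median gene moved by 1.31 toward lung and the counts were 19 higher and 5 lower, with 11 members changing sign, 8 of which passed the test with one scaling or the other.

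Across the 34 members the log2 fold changes in liver and lung went together, with Pearson's r 0.65 and Spearman's rho 0.67. This is a description over genes measured in the same libraries, and genes are not independent replicates. The change was larger in liver for 24 members and larger in lung for 10. The difference itself passed the test for 7, with 2 larger in lung and 5 larger in liver, where 8.89% and 8.84% of all genes tested were called in those directions. Beside Oas2, Oas3 and Ifit2, the 4 others were Xaf1 (-1.40 ± 0.38 for lung minus liver, adjusted p = 0.0261), Trim30a (-1.17 ± 0.34, 0.0347), Isg15 (-1.26 ± 0.38, 0.0418) and Usp18 (-1.95 ± 0.60, 0.0485). These 4 calls were near the threshold: each ended without CLP liver replicate 1 or 3, sham liver replicate 1 or 2, CLP lung replicate 1 or 2, or sham lung replicate 1 or 3, with adjusted p-values up to 0.114, and each held in 5 to 7 of 18 alternatives. Without sham liver replicate 3 the calls of Usp18 and Xaf1 ended, and without sham lung replicate 2 those of Isg15 and Usp18. Ifit1 and Cmpk2, with differences of -2.02 ± 0.93 and -1.89 ± 0.91, were not called (adjusted p = 0.176 and 0.191).

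**Figure D3:**
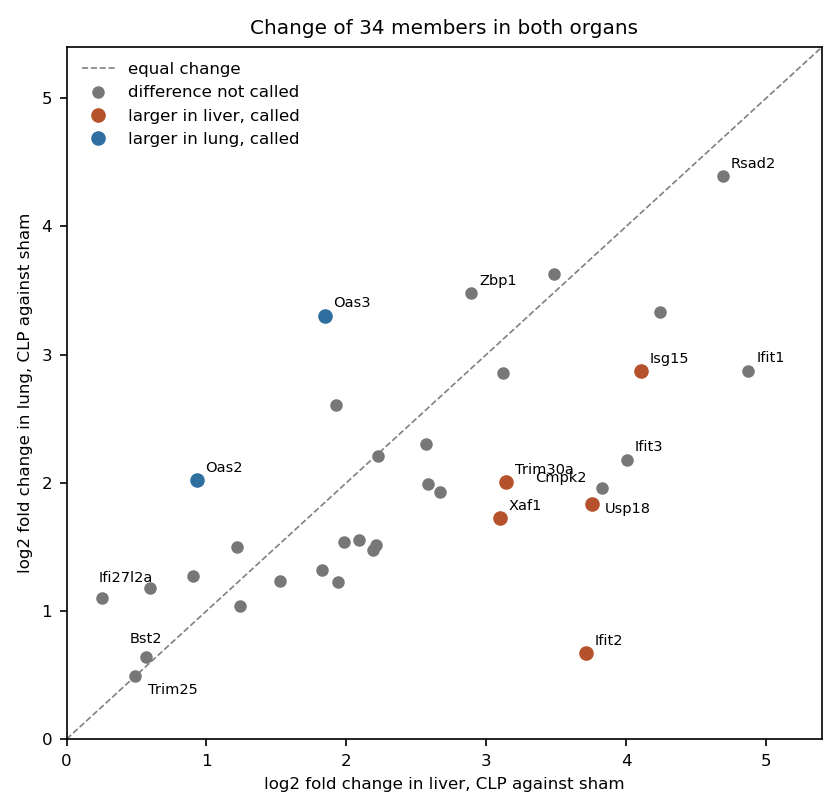
Each point is a member, with its log2 fold change in liver on the horizontal axis and in lung on the vertical axis; the dashed line marks equal change and colour marks a difference between organs with an adjusted p below 0.05. Oas2 and Oas3 lie above the line, and Ifit2, at 3.71 in liver and 0.67 in lung, lies farthest below it.

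The members also moved together from library to library. CLP replicate 2 was the lowest of the CLP libraries for 31 of 34 members in liver and 32 in lung, and CLP replicate 3 the highest for 31 and 29. Over all genes higher after CLP, replicate 2 was lowest for 33.7% in liver and 27.2% in lung, and replicate 3 highest for 25.5% and 15.8%; over all genes tested these shares were 35.4%, 32.2%, 29.6% and 36.0%. The summed level of the 34 members was 5969, 3060 and 7473 CPM in the CLP liver libraries, in replicate order, against 1110 to 1452 CPM after sham. In lung it was 2666, 1960 and 3509 CPM against 804 to 967 CPM, so that no CLP library overlapped sham in either organ. The 17 interferon-gamma GTPases had the same order, with replicate 2 lowest for 15 in liver (88.2%) and 16 in lung (94.1%) and replicate 3 highest for 16 (94.1%) and 15 (88.2%).

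Marker sums of neutrophils were 318, 341 and 242 CPM in CLP liver and 4986, 5440 and 3800 CPM in CLP lung, highest in replicate 2 and lowest in replicate 3. Endothelial sums had that order too, at 240, 246 and 214 CPM and 1733, 1806 and 1588 CPM. Monocyte and alveolar macrophage sums were also highest in replicate 2 in both organs. In lung, sums of alveolar type 2, plasmacytoid dendritic, Kupffer, T, NK and B cell markers were lowest in replicate 2. The part of these cell types in the order of the members was not tested. The spread was uneven across members. Between the highest and lowest CLP library the ratio was 6.22 for Mx1, 5.56 for Ifit1, 5.49 for Ifit3 and 5.37 for Cmpk2 in liver, but 1.07 for Ifi27l2a, 1.09 for Oas3 and 1.19 for Herc6. In lung it was 3.74 for Cmpk2 and 3.58 for Oasl1, but 1.18 for Oas3 and 1.19 for Zbp1. Without CLP liver replicate 3, Ifit2, Ifit3 and Mx1 had liver changes of 3.08, 3.32 and 3.29, and without sham liver replicate 3 that of Ifit1 was 5.53.

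**Figure D4:**
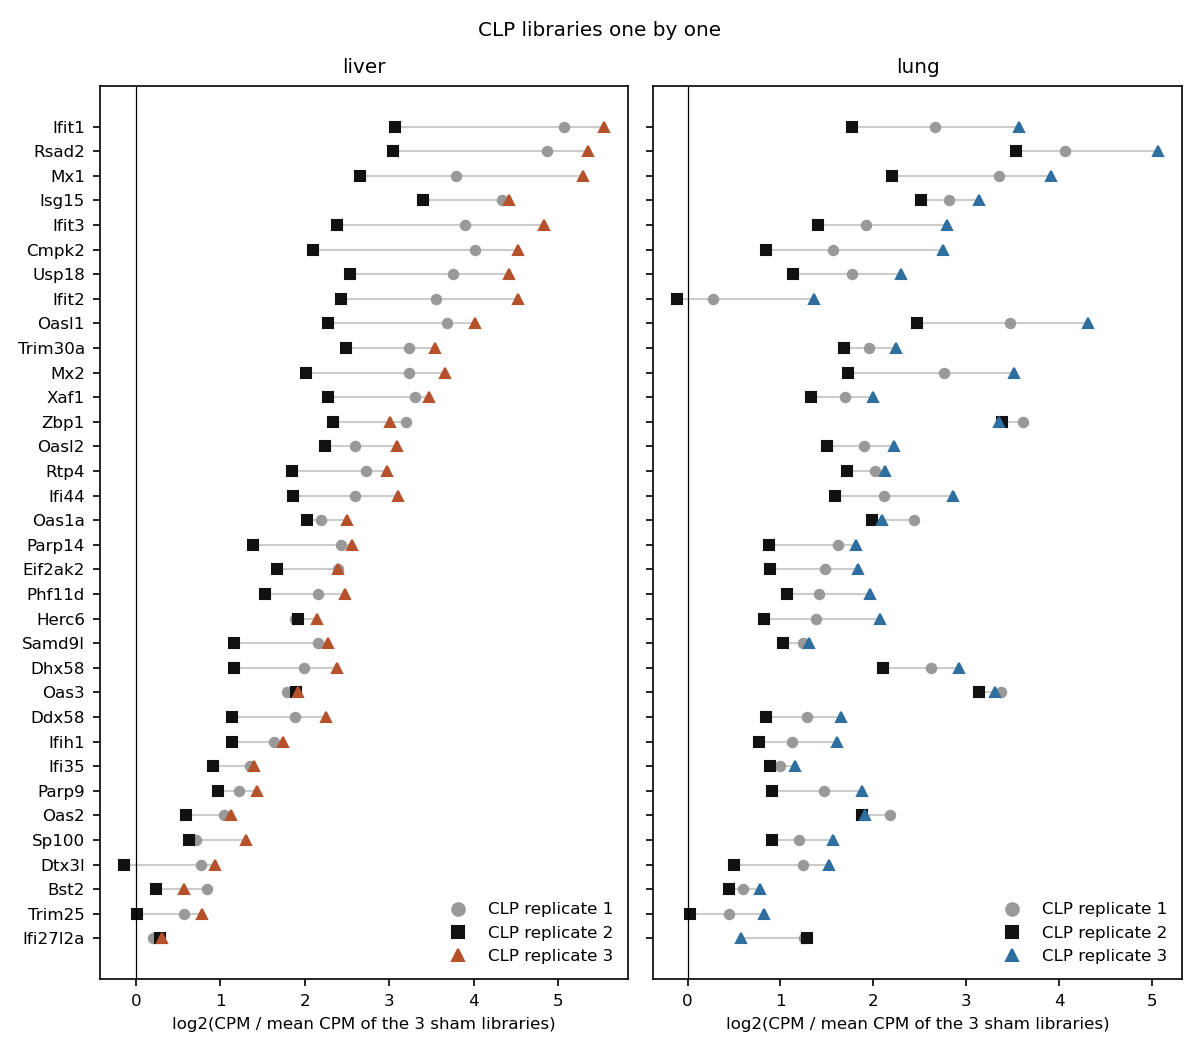
For each member, log2 of the CPM in each CLP library over the mean CPM of the 3 sham libraries, in liver (left) and lung (right), with replicate number as symbol; members are ordered by their change in liver. Replicate 2 (black squares) sits at the low end and replicate 3 (triangles) at the high end for most members in both organs.

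The transcripts of the interferons themselves were at or near 0. None of 20 interferon genes passed the low-count filter, 16 of them had 0 counts in all libraries, and the 19 type I and type III genes together had 2 counts in CLP liver, 1 in sham liver, 2 in CLP lung and 1 in sham lung. Ifng had 2, 0, 7 and 1 counts in those groups, and no interferon gene exceeded 5 counts in a library. Changes in these genes were not detectable at this depth. Markers of plasmacytoid dendritic cells, which can secrete much interferon, summed to 135 to 159 CPM in sham lung and 161 to 185 CPM in CLP lung. In lung 2 of 5 tested genes were higher, where 23.9% of all genes tested were called higher. In liver 1 of the 6 genes could be tested, and it was called higher (0.61 on the log2 scale). The sums there were 18.7 to 20.9 CPM after sham and 27.3 to 29.5 CPM after CLP.

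Genes that carry the interferon signal had median log2 fold changes of 0.28 in liver and 0.48 in lung for the receptor chains, and of 0.45 and 0.87 for 5 JAK-STAT transducers. Of the receptor chains, 1 of 5 tested was higher in liver (Ifngr2, 0.93 ± 0.12) and 5 of 6 in lung. Shares called higher over all genes tested were 21.4% in liver and 23.9% in lung, so the liver count was near its share. The lung count was 2 without sham replicate 2, where Ifnar2 (adjusted p = 0.0578), Ifngr1 (0.104) and Ifngr2 (0.0874) no longer passed, and 3 without CLP replicate 1, with library totals alone or with upper-quartile scaling. The liver count was 2 without CLP replicate 3, where Il10rb passed (0.0134). Ifnar1, a chain of the type I receptor, changed by 0.04 ± 0.10 in liver, not called, and by 0.67 ± 0.11 in lung. Of the 5 transducers, 4 were higher and 1, the kinase Tyk2, lower in each organ (-0.59 ± 0.16 and -0.32 ± 0.09). With library totals alone 2 were higher in liver, since Jak1 (adjusted p = 0.106) and Stat2 did not pass. Irf9 rose by 0.70 ± 0.17 in liver and 1.17 ± 0.08 in lung and Jak2 by 1.47 ± 0.12 and 0.87 ± 0.09. Stat2 changed by 0.38 ± 0.11 in liver and 1.33 ± 0.19 in lung, and its liver call ended without CLP replicate 3 (adjusted p = 0.0631) or any 1 sham library (0.0522 to 0.0665), with library totals alone (0.196) and in the 12-library fit (0.0680). The Tyk2 calls ended without CLP replicate 3 or sham replicate 1 or 3 in either organ (0.0606 to 0.0908), and in lung also in the 12-library fit (0.0526).

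Interferon regulatory factors are the transcription factors that turn on interferon and its targets. In liver 2 of 6 tested were higher and 1 lower, and in lung 6 of 7 were higher and 1 lower. The shares over all genes tested were 21.4% higher and 21.0% lower in liver, near these counts, and 23.9% and 24.9% in lung. Irf7, itself induced by interferon, rose the most in both organs, from 48.6 ± 5.74 to 193 ± 38.6 CPM in liver (SD, n = 3; log2 1.99 ± 0.17) and from 15.3 ± 2.68 to 100.3 ± 20.6 CPM in lung (2.74 ± 0.19). Irf8 was the other riser in liver (1.13 ± 0.19). Irf3 (-0.39 ± 0.12 and -0.26 ± 0.07), which switches on interferon genes once phosphorylated, was the one called lower in both organs. Its liver call ended without CLP replicate 2 (adjusted p = 0.0604) or sham replicate 1 (0.0828) or 3 (0.0865), and its lung call without CLP replicate 2 or 3 or sham replicate 2 or 3 (0.0592 to 0.107) and in DESeq2 (0.0599).

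Among 14 sensors and adaptors that lead to interferon, 9 of 13 tested were higher in liver and 11 of 14 in lung, and 1, Mavs, was lower in both. Of all genes tested, 21.4% were called higher in liver and 23.9% in lung. Ikbke, a kinase that activates IRF3 and IRF7, rose by 2.55 ± 0.18 in liver and 5.01 ± 0.36 in lung. Mavs, the adaptor through which RIG-I and MDA5 signal, went from 141 ± 9.23 to 51.0 ± 9.01 CPM in liver (SD, n = 3; log2 -1.47 ± 0.13) and from 32.4 ± 0.229 to 19.6 ± 0.591 CPM in lung (-0.70 ± 0.07). Myd88, the adaptor of most Toll-like receptors, rose by 1.40 ± 0.12 and 1.68 ± 0.09. Feedback regulators were higher in 6 of 9 genes in liver and 8 of 9 in lung, and edgeR, DESeq2 and limma-voom called 0 lower. At an unadjusted p under 0.05 edgeR had 0 lower in liver and 1 in lung, Pias1 (-0.17 ± 0.07), which was called lower with library totals alone (-0.28, adjusted p = 0.0125) and with upper-quartile scaling (-0.29, 0.00966). Socs1, an inhibitor of JAK kinases, rose by 5.43 ± 0.18 in liver and 2.95 ± 0.29 in lung, and Tnfaip3, an inhibitor of inflammatory signalling, by 5.17 ± 0.50 and 3.90 ± 0.38. Socs3, which inhibits signalling by several cytokine receptors, rose by 2.16 ± 0.14 and 3.29 ± 0.17.

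The interferon-gamma GTPases, a comparison list of 17 genes of the GBP and IRG families that defend against microbes inside cells, were higher in 15 genes in liver and 16 in lung. Shares called higher over all genes tested were 21.4% in liver and 23.9% in lung. Ifi47 had the lowest p in liver (4.22 ± 0.21) and Tgtp1 in lung (2.85 ± 0.29). The median log2 fold change of the list was 3.50 in liver and 2.24 in lung, beside 2.22 and 1.88 for the 34 antiviral-type members. The difference between organs was called for 7 of these 17, all larger in liver, among them Gbp2 (-2.87 ± 0.40 for lung minus liver, adjusted p = 0.000587) and Ifi47 (-2.18 ± 0.39, 0.00256), and for 5 of 34 members in that direction. The share of all genes tested called in that direction was 8.84%. The count of 5 members ran from 0 to 7 when each library was left out, and the calls of single GTPases were not checked in the alternatives.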

How the data were processed

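Liver and lung RNA of 12 libraries was sequenced by the submitters with a stranded TruSeq kit on a NextSeq500, per the labels' protocols. The deposited table holds raw counts, in whole numbers, for 55414 Ensembl genes. Per the submitters' processing notes, FastQC, STAR 2.7.10a, featureCounts, DESeq2 and build mm39 were used, in unstated roles. The release of the annotation, the strand setting and the handling of multiply mapped reads were not given in the sources used here. These bear on members with near copies or antisense overlaps. Symbols came from a table of gene names, which named 52081 identifiers.

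Columns were assigned by library name. Replicate pairs differed by more than sampling noise (chi-square of 5.28 to 37.6 per degree of freedom). edgeR's low-count filter (minimum count of 10 and total of 15) left 12392 genes in liver, 15441 in lung and 16111 over both organs, and libraries were TMM-scaled. Tests were edgeR's quasi-likelihood test (version 4.0.16, R 4.3.3, robust, two-sided), in the 6 libraries of each organ and, for the difference between organs and for sham lung against sham liver, in all 12. P-values were adjusted by the Benjamini-Hochberg method over all genes tested, with a threshold of 0.05. A standard error is the log2 fold change divided by the square root of F, an approximation. The fit was tested on simulated data. Alternatives were other scalings, no filter, DESeq2 1.42.0, limma-voom (limma 3.58.1), a replicate block, the 12-library fit and leaving out each library. Exon lengths, overlaps and near copies (at least 95% identity over at least 8% of a transcript) came from GENCODE M21, an older build than mm39, so no coordinates were taken from it.

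The 34 members, the 8 pathway lists and the 11 marker lists were chosen with earlier results of these data known. All members are named, and values in every library are given for some members of each role. Others, among them Ifih1, Parp14, Oasl2, Xaf1 and Ifi44, have group means or log2 fold changes only. Of each pathway list, the genes named include those with the lowest p and those that moved against the rest, and others were chosen after their values were seen. Some genes of these lists are not reported here.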

Additional observations from a re-analysis of the deposited data

Results flagged for a closer look

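For 7 members the change after CLP differed between organs by the interaction test in edgeR (Benjamini-Hochberg adjusted p below 0.05 over 16111 genes). As lung minus liver on the log2 scale, the values were -3.07 for Ifit2, -1.95 for Usp18, -1.40 for Xaf1, -1.26 for Isg15 and -1.17 for Trim30a, and 1.06 for Oas2 and 1.43 for Oas3. The negative calls did not all hold when single libraries were left out, as given with the results above, and those of Oas2 and Oas3 did.

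In the pathway lists, Ptpn6, a phosphatase of blood cells, differed by 2.30 (-0.08 in liver, not called, and 2.25 in lung), Ikbke by 2.43, Irf5 by 1.56, Socs3 by 1.10, Stat2 by 0.92, Irf1 by 0.86, Mavs by 0.74 and Ifnar1 by 0.61. Socs1 (-2.52), Jak2 (-0.63) and Ifngr2 (-0.54) had the larger rise in liver. The Ifngr2 difference was at the threshold (adjusted p = 0.0494). It no longer passed with library totals alone (0.129), with limma-voom (0.0644) or without any 1 library other than CLP liver replicate 2 or CLP lung replicate 1 (0.0540 to 0.195). The Jak2 call ended without CLP liver replicate 1 (0.0527) or sham liver replicate 1 or 2 (0.0540), and the Irf1 call without CLP lung replicate 1 (0.0554) or sham lung replicate 2 (0.0607). Neutrophil markers, given above, rose after CLP in both organs. Monocyte markers rose in lung and were mixed in liver, with 4 of 7 genes higher and 1 lower. The part of these cells in these differences was not tested.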

How the results depend on the processing

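The number of members higher after CLP was 30 to 33 in liver and 31 to 34 in lung when each library was left out in turn, with 0 lower, and the median log2 fold changes ran from 2.09 to 2.45 and from 1.56 to 2.11. No member changed sign in liver or lung in any alternative run. The difference between organs changed sign in at least 1 alternative for 9 members, none of them called in any fit: Mx1, Mx2, Oas1a, Oasl1, Trim25, Parp9, Rsad2, Bst2 and Ifi44. The difference between organs depended on the processing: the members with a larger change in liver numbered 5, but 2 with library totals alone, 0 without a low-count filter, 1 with limma-voom and 0 to 7 with each library left out (0 without sham liver replicate 1 or 2 or CLP lung replicate 1). Those with a larger change in lung numbered 2 to 3. The cause was not tested. Sham lung against sham liver gave 19 higher and 5 lower members with library totals alone, and 6 to 11 higher and 11 to 14 lower with each library left out, with 6 higher without sham liver replicate 2.

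With library totals alone the median gene moved by -0.20 in liver, -0.10 in lung, 0.12 in the difference between organs and 1.31 in sham lung against sham liver. Among members called with one scaling or the other, the last comparison then reversed for Ifih1 (0.42), Isg15 (0.086), Herc6 (0.54), Trim25 (0.30), Parp14 (1.26), Eif2ak2 (0.88), Ifi35 (1.05) and Rtp4 (1.18). It also reversed for Ifnar1 (1.02), Ifnar2 (0.64), Jak1 (0.77), Irf9 (0.72), Irf2 (0.15), Irf3 (0.91), Irf5 (0.41), Myd88 (0.49), Tbk1 (0.69), Traf6 (1.30, and 0.23 with upper-quartile scaling), Socs1 (0.23) and Ptpn6 (1.27).

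With liver and lung libraries of the same surgery and replicate number as a block, 4 members had a larger change in lung and 13 a larger change in liver. The share of all genes called with this block is not reported here. Whether the block adds calls for these members in particular therefore cannot be told from these counts. The labels do not say that numbers pair the libraries. Same-numbered liver and lung libraries correlated at 0.13, 0.05 and 0.14 after CLP and at -0.01, 0.04 and 0.07 after sham, over genes and as deviations from the group mean, so not every pair passed 0.1, and 5 of 6 liver libraries correlated best with their own number. Beyond the 7 members called without it, the block called Ifit1 (-2.01, adjusted p = 0.00679), Cmpk2 (-1.87, 0.00316), Ifit3, Oasl2, Parp14, Eif2ak2, Ddx58 and Phf11d on the side of liver and Dhx58 and Dtx3l on the side of lung. Within each organ the block was another one, which put CLP and sham libraries of the same number together. The labels do not pair these libraries either. They correlated at 0.04, 0.10 and 0.09 in liver and at 0.01, 0.07 and 0.03 in lung. Under that block Irf3 did not pass in lung (adjusted p = 0.0507), nor did Ifngr1 (0.0545), and Trim25 was called in liver (0.0388). With 3 libraries a group, small changes such as those of Trim25 in both organs, and of Bst2 and Dtx3l in liver, are at the limit of what could be told from the spread between libraries.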

Other observations

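The sham libraries also had a common order in both organs. The median log2 ratio of the 34 members to the sham mean was -0.04, -0.28 and 0.23 in sham liver replicates 1 to 3, and 0.05, -0.20 and 0.12 in sham lung. After CLP the same medians were 2.40, 1.80 and 2.46 in liver and 1.70, 1.28 and 2.00 in lung.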
